A study of Aedes aegypti with 7 samples.

Results

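The genes described here are the ribosomal protein genes whose transcripts were recovered with Argonaute 1 (AGO1) from the fat body of the yellow fever mosquito Aedes aegypti. They were chosen by name: every annotated gene with a peak whose annotation name holds the words ribosomal protein, without the words mitochondrial or kinase. The rule found 86 of 8578 genes with a peak, carrying 881 of 48655 gene peaks and 23418 of 270007 counts in genes. By their names, 51 code for proteins of the large subunit and 33 for proteins of the small subunit. The other 2 names are organellar (28S ribosomal protein S5, and 40S ribosomal protein S2 marked prokaryotic and organellar), and these hold 9 and 1 counts, so nearly all counts belong to names of the cytosolic ribosome.

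A ribosome is built from a small subunit, which reads the messenger RNA, and a large subunit, which joins the amino acids, and each subunit is a set of proteins on a ribosomal RNA core. The fat body is the insect's counterpart of liver and fat tissue, and after a blood meal it makes the yolk proteins for the eggs. AGO1 is the protein that carries microRNAs in insects, and in CLIP it is crosslinked to RNA with ultraviolet light and precipitated, so that the bound RNA fragments can be sequenced and counted.

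Adult females of the UGAL/Rockefeller strain were sampled at 24 h after a blood meal (24 h PBM) and at 72 h after eclosion, before any blood meal (72 h PE), with 3 AGO1 CLIP libraries at each time. Blood was given to mosquitoes of the same cage, so the 24 h PBM females were fed and also older, and blood feeding and age cannot be told apart. Nothing in the sources used here says how many females or which preparations lie behind the 3 libraries of a time, so p-values measure only the spread between these libraries, which may be technical. CLIP counts move with the amount of an RNA as well as with its binding to AGO1, and these cannot be told apart here, nor can fewer cells of a type and less RNA per cell.

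Over all peaks the libraries held 132758, 90568 and 91903 counts at 24 h PBM and 83810, 107245 and 69424 counts at 72 h PE. Counts in ribosomal protein genes were 4250, 2079 and 2019 at 24 h PBM and 4637, 6477 and 3956 at 72 h PE. The labelled tissue was looked at with a list of 19 fat body genes (vitellogenin, cathepsin B and others), which took 7.35% ± 1.46 of the counts in genes at 24 h PBM and 0.446% ± 0.124 at 72 h PE (SD, n = 3 each). In the gene test below 7 of the 19 were tested and all 7 rose at 24 h PBM, so the list says little about the tissue at 72 h PE. Genes of ovary and embryo (vitelline membrane proteins and oskar) gave 9, 31 and 195 counts at 24 h PBM and 0, 1 and 2 counts at 72 h PE. Replicate 3 of 24 h PBM thus stands apart in ovary transcripts, and the gene test below is given with and without it. A list of 18 muscle genes took 0.470%, 0.879% and 1.07% of gene counts at 24 h PBM and 0.777%, 0.431% and 0.693% at 72 h PE, with overlap. In the gene test below 7 of them were tested and all had a log2 fold change above 0, with a median of 0.96, but only 1 rose, a myosin heavy chain gene (AAEL005733, 1.55, SE 0.39, edgeR adjusted p = 0.00435); their part in the results was not tested. Gut genes gave between 3 and 7 counts at 24 h PBM and between 9 and 17 at 72 h PE, and nerve genes between 6 and 24 at 24 h PBM and between 10 and 12 at 72 h PE.

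Ribosomal protein transcripts took a smaller share of AGO1-bound gene counts after the blood meal. The share was 6.86%, 5.03% and 4.64% in the 24 h PBM libraries, against 12.9%, 12.1% and 11.7% in the 72 h PE libraries. Every 24 h PBM library lay below every 72 h PE library. Taken gene by gene, the share of gene counts was separated in this way for 39.2% of all genes tested below. The 95% Wilson intervals, which cover counting error only, ran from 6.66% to 7.06% in the highest 24 h PBM library and from 11.4% to 12.1% in the lowest 72 h PE library. The means were 5.51% ± 1.18 at 24 h PBM and 12.2% ± 0.613 at 72 h PE (SD, n = 3 each), a share 2.22 times as large at 72 h PE. With 3 libraries against 3 an exact permutation test cannot give a p below 0.1, so no p is given.

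The share stayed smaller at 24 h PBM without the listed fat body genes, and without 1 ribosomal protein. That list was made from words in gene names, so yolk protein genes named otherwise stay in the denominator. With ribosomal RNA and the fat body list taken out of the denominator the share was 6.73% ± 1.73 at 24 h PBM and 14.0% ± 0.939 at 72 h PE, and without S9, the most counted member, it was 5.19% ± 1.03 at 24 h PBM and 11.6% ± 0.326 at 72 h PE (SD, n = 3 each). Counts classed as ribosomal RNA took 10.2% ± 4.16 of gene counts at 24 h PBM and 11.9% ± 1.65 at 72 h PE, with overlapping libraries.

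Both subunits had the smaller share. Small subunit genes took 2.86%, 2.07% and 1.82% of gene counts at 24 h PBM, against 5.77%, 5.05% and 4.73% at 72 h PE. Large subunit genes took 3.998%, 2.96% and 2.82% at 24 h PBM, against 7.15%, 7.03% and 6.98% at 72 h PE. Neither subunit overlapped between the times. The balance between the subunits, given as the small subunit's share of counts in both, was 40.7% ± 1.29 at 24 h PBM and 42.3% ± 2.18 at 72 h PE (SD, n = 3 each), with overlapping libraries. Without S9 the 2 times no longer overlapped, at 36.9% ± 0.976 for 24 h PBM and 38.8% ± 0.795 for 72 h PE.

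**Figure D1:**
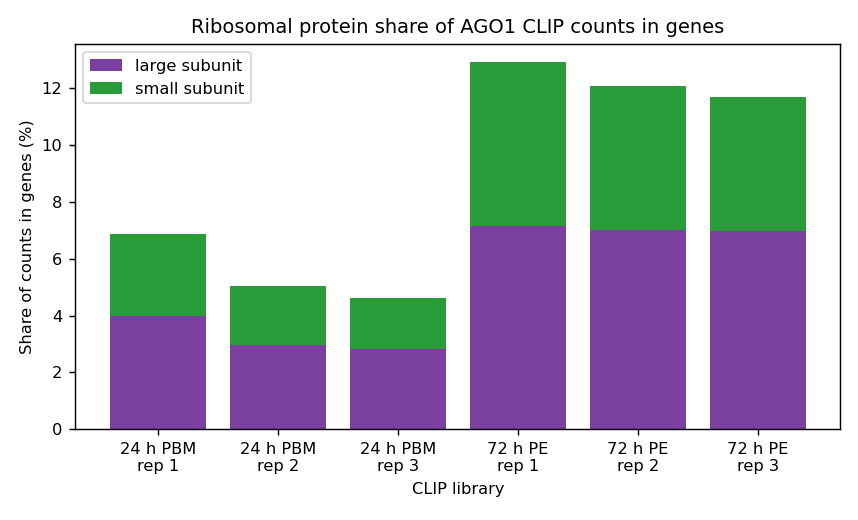
Share of the counts in genes that fell in ribosomal protein genes, in percent, for each CLIP library, stacked by large and small subunit; the 2 genes with organellar names are not drawn. The 24 h PBM bars reach between 4.64% and 6.86% and the 72 h PE bars between 11.7% and 12.9%.

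The counts were unevenly spread over the members. A member held a median of 234.5 counts in a median of 10.5 peaks over the 6 libraries; 60 members had 100 or more counts and 9 had fewer than 10. The 12 most counted members held 40.4% of all ribosomal protein counts. Counts were summed over a gene's peaks and not divided by its length, so this is no order of expression level. The order of the members was much the same in every library, with Spearman correlations between 0.70 and 0.92 over the 61 members tested below, as a description. Names are not unique, since 33 of the gene IDs share a protein name with another ID, and reads could be split between near-identical copies. The fit below gave the same 4 calls in number when counts were summed by protein name.

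For each gene the counts of its peaks were summed, and edgeR's quasi-likelihood test compared the 2 times over all genes, with levels given as TMM-normalised CPM (counts scaled to a common library size; TMM scales libraries by the bulk of genes) and Benjamini-Hochberg adjusted p-values called at 0.05. Of 8578 genes, 627 passed the filter on low counts, and of these 12.3% were lower and 14.7% higher at 24 h PBM. Of the 86 members 61 passed the filter, holding 97.9% of all ribosomal protein counts; 4 of them fell at 24 h PBM and 0 rose, and the other 57 were not called. At an unadjusted p under 0.05 there were 11 lower members, where 17.9% of all genes tested were. DESeq2 called 2 lower and 0 higher (9.25% of all genes tested were lower), and without the filter on low counts 0 of 86 members were called (0.408% of all genes were lower). The 4 are 6.56% of the 61 and thus no larger a share than among all genes tested. Left out in turn, replicates 2 and 3 of 24 h PBM and replicates 2 and 3 of 72 h PE each left 0 members lower (5 or 6 at an unadjusted p under 0.05) beside 37 to 48 lower genes in all. Leaving out replicate 1 of 72 h PE gave 3 of 63 members beside 67 of 751 genes, and leaving out replicate 1 of 24 h PBM gave 8 of 65 members beside 63 of 764 genes; after taking out the fat body and ovary lists there were 4. The 25 members that were not tested had at most 70 counts each and 500 counts in all.

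As a group the members lay slightly low rather than far from the other genes. The log2 fold change of 24 h PBM over 72 h PE was below 0 for 53 of 61 members and for 48.0% of all genes tested, with a median of −0.48 for the members and 0.05 for all genes tested. It ran from −1.38 to 0.91 over the members, with an SD of 0.40, against an SD of 1.48 over all genes tested. For 22 members every 24 h PBM library was below every 72 h PE library, and for 0 members the reverse held; over all genes tested 21.1% were separated each way. By share of gene counts, without TMM, the same held for 43 of 61 members and 39.2% of all genes tested. The small subunit had a median of −0.52 over 26 tested members, 1 of them lower, and the large subunit −0.41 over 35 tested members, 3 of them lower.

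These counts depend on how libraries are scaled. TMM set the libraries of 24 h PBM up and those of 72 h PE down, and with library totals over all peaks in its place 41 of 61 members were lower at 24 h PBM, where 33.0% of all genes tested were. The median of all genes tested then moved to −0.64 and that of the members to −1.18. The members' median lay 0.54 below that of all genes with library totals and 0.53 below it with TMM, on the log2 scale.

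**Figure D2:**
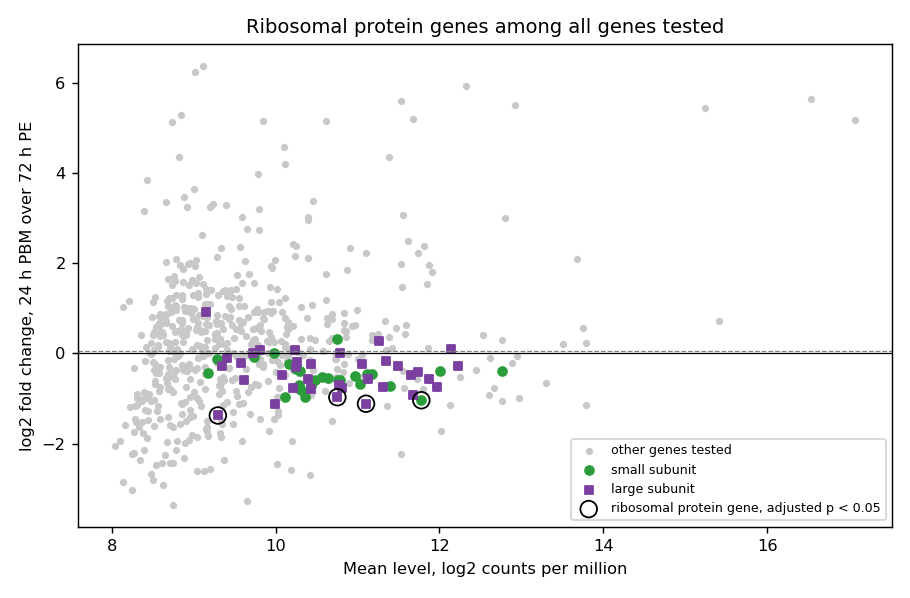
Each point is a gene tested, with its mean level in log2 CPM on the x axis and its log2 fold change of 24 h PBM over 72 h PE on the y axis; green circles are small and purple squares large subunit genes, rings mark the 4 called ribosomal protein genes, and the dashed line is the median of all genes tested. The ribosomal protein genes form a narrow band mostly just under 0, between −1.38 and 0.91.

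The 4 members that fell were S2, P0, L17 and the gene named L44 L41. S2 (AAEL010168) is a small subunit protein at the entrance of the messenger RNA channel. Its level was 2137, 2117 and 2507 CPM at 24 h PBM, against 4058, 4517 and 5314 CPM at 72 h PE. All 24 h PBM libraries were close together and well under the lowest 72 h PE library. The log2 fold change was −1.04 (SE 0.33, edgeR adjusted p = 0.0198), that is 2.05-fold lower at 24 h PBM.

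P0 (AAEL010821) is the base of the stalk of the large subunit on which the elongation factors dock. It had 1623, 996 and 1383 CPM at 24 h PBM, against 2014, 3565 and 3143 CPM at 72 h PE, without overlap. Its log2 fold change was −1.12 (SE 0.36, edgeR adjusted p = 0.0224). Of its stalk partners, P2 (AAEL014583) had 2760, 2948 and 3242 CPM at 24 h PBM and 3906, 4679 and 4569 CPM at 72 h PE. The P2 libraries did not overlap, but its log2 fold change of −0.56 was not called (SE 0.32, edgeR adjusted p = 0.197). L12 (AAEL014562), a neighbour of P0 at the stalk base, had a log2 fold change of 0.01 with overlapping libraries, and both P1 genes were too low to test, with 27 and 13 counts.

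L17 (AAEL011471), which lines the tunnel through which the new protein leaves, had 1028, 1121 and 1210 CPM at 24 h PBM, against 2105, 2451 and 2009 CPM at 72 h PE. The spread within each time was small beside the gap between them. Its log2 fold change was −0.97 (SE 0.36, edgeR adjusted p = 0.0469). L4 (AAEL009994), another protein of that tunnel, had 3247, 2117 and 3458 CPM at 24 h PBM and 5645, 4699 and 4407 CPM at 72 h PE. The L4 libraries did not overlap either, and the log2 fold change of −0.74 was not called (SE 0.33, edgeR adjusted p = 0.103).

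The gene named L44 L41 (AAEL003942) carries 2 protein names in the annotation. It is one of the less counted tested members, with 120 counts in all, and had 433, 332 and 130 CPM at 24 h PBM, against 763, 932 and 713 CPM at 72 h PE. The libraries did not overlap. The log2 fold change was −1.38 (SE 0.51, edgeR adjusted p = 0.0453). Its raw counts were 16, 8 and 3 at 24 h PBM and 25, 46 and 22 at 72 h PE, and a gene can pass the filter through 1 time alone.

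The 4 calls depended on single libraries and on the processing. Without the filter on low counts all 4 were lost. With DESeq2, or without intron peaks, L17 and L44 L41 were lost while S2 and P0 were kept. All 4 were lost when replicate 2 or replicate 3 of 24 h PBM, or replicate 2 or replicate 3 of 72 h PE, was left out, and L17 and L44 L41 also without replicate 1 of 72 h PE, and L17 without replicate 1 of 24 h PBM. Over 14 other ways of processing, the adjusted p of S2 ranged from 0.000114 to 0.110, that of P0 from 0.000131 to 0.164, that of L17 from 0.000453 to 0.255 and that of L44 L41 from 0.00137 to 0.242, with a log2 fold change below 0 for all 4 in each of them. L10a (AAEL013221), part of the mobile L1 stalk of the large subunit, came next. It had 379, 706 and 735 CPM at 24 h PBM, against 1160, 1418 and 1296 CPM at 72 h PE. Its log2 fold change was as low as that of P0, at −1.12, without being called (SE 0.43, edgeR adjusted p = 0.0564).

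At the other end, no member rose. L32 (AAEL003396), known in fruit flies as rp49 and much used as a reference gene in insect RT-PCR, had the highest log2 fold change. It had 893, 332 and 778 CPM at 24 h PBM and 214, 344 and 519 CPM at 72 h PE. The times overlapped, and the log2 fold change of 0.91 was not called (SE 0.52, edgeR adjusted p = 0.194). S17 (AAEL004175) at 0.32 and L37a (AAEL013272) at 0.27 came next, both with overlapping libraries, and both turned negative when libraries were scaled by their totals, to −0.37 for S17 and −0.42 for L37a.

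Among the other most counted members, S6 (AAEL000032) is the small subunit protein that S6 kinase phosphorylates downstream of the nutrient sensor TOR. It had 2679, 1495 and 1729 CPM at 24 h PBM, against 2960, 4010 and 2852 CPM at 72 h PE. The libraries did not overlap, yet the log2 fold change of −0.73 was not called (SE 0.34, edgeR adjusted p = 0.124). L14 (AAEL011447) was likewise separated without a call, with 2381, 2823 and 2680 CPM at 24 h PBM, against 3814, 3970 and 3176 CPM at 72 h PE.

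S9, L10, S20 and L7a differed more between libraries of one time than between the times. S9 (AAEL001759), which lies near the messenger RNA entrance with S2 and holds 6.06% of all ribosomal protein counts, had 9037, 4484 and 4366 CPM at 24 h PBM and 11780, 6947 and 4731 CPM at 72 h PE. S20 (AAEL009506) had 6304, 1827 and 2291 CPM at 24 h PBM and 6835, 3788 and 3241 CPM at 72 h PE. In both genes replicate 1 was the highest library at each time. L10 (AAEL002534), which sits near the peptidyl transferase centre and is needed for the subunits to join, had 6007, 2823 and 3934 CPM at 24 h PBM and 4730, 5266 and 5476 CPM at 72 h PE. The sign of the small log2 fold changes of S9 (−0.38), S20 (−0.39) and L10 (−0.27) changed when 1 library was left out, replicate 1 of 72 h PE for S9 and S20 and replicate 2 of 24 h PBM for L10. Without replicate 1 of 24 h PBM, S20 (log2 fold change −1.14), S6 (−1.01) and L40 (−1.42) were called lower. With all libraries kept but intron peaks left out, the log2 fold change was −0.10 for S20, −0.64 for S6 and −0.29 for L40. None of these was called. L7a (AAEL005722) had 4248, 1951 and 2378 CPM at 24 h PBM and 4028, 3909 and 3565 CPM at 72 h PE, and a log2 fold change of −0.41 that was not called (SE 0.35, edgeR adjusted p = 0.387).

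**Figure D3:**
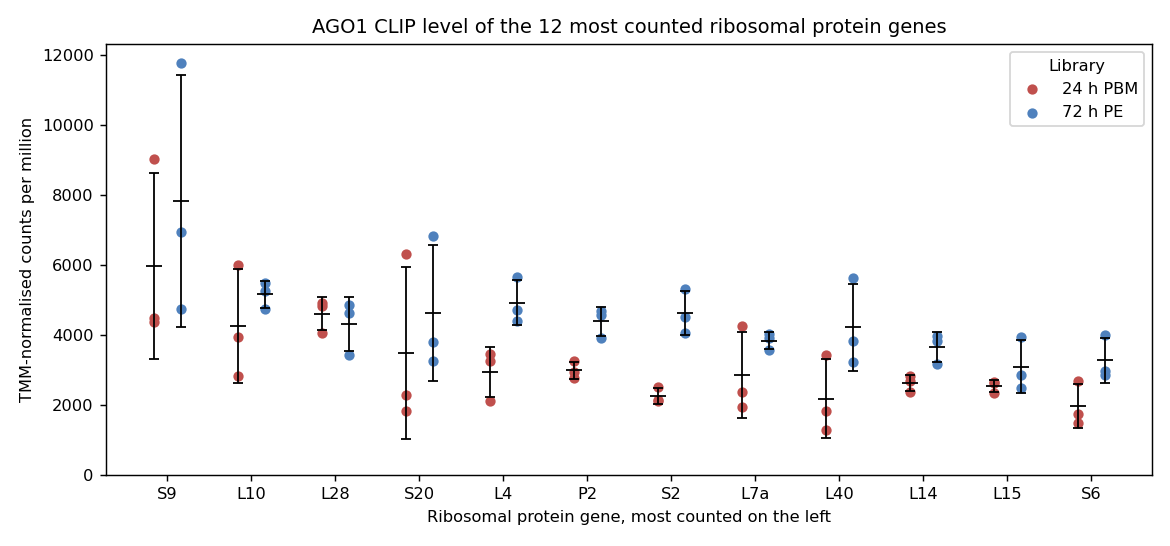
TMM-normalised CPM of the 12 most counted ribosomal protein genes; points are libraries, 24 h PBM in red on the left and 72 h PE in blue on the right of each pair, with the mean and SD of 3 libraries in black. S2, P2, L4, L14 and S6 are separated between the times, and S9 and S20 each have 1 high library at both times.

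Proteins made as fusions with ubiquitin or a ubiquitin-like protein were looked at on their own. L40 (AAEL013536), whose annotation names it as ubiquitin too, had 3436, 1287 and 1816 CPM at 24 h PBM and 5615, 3220 and 3824 CPM at 72 h PE. Replicate 1 of 24 h PBM reached into the range of 72 h PE, and the log2 fold change of −0.93 was not called (SE 0.37, edgeR adjusted p = 0.0685). S30 (AAEL009653), fused in animals to a ubiquitin-like domain, had 1461, 581 and 605 CPM at 24 h PBM and 1831, 1215 and 1361 CPM at 72 h PE, with a log2 fold change of −0.69 (SE 0.43, edgeR adjusted p = 0.234). The stretch covered by L40 peaks also holds, on the same strand, 13 coding peaks with 104 counts that are not assigned to any member. Whether reads of L40 are shared with them was not tested.

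L28 (AAEL008353) was level, with 4924, 4816 and 4064 CPM at 24 h PBM and 4638, 3423 and 4861 CPM at 72 h PE, and a log2 fold change of 0.10 (SE 0.32, edgeR adjusted p = 0.849). Introns hold most of its counts. Without intron peaks the log2 fold change of L28 was −0.74. L15 (AAEL012736) had 2652, 2616 and 2334 CPM at 24 h PBM and 3936, 2856 and 2495 CPM at 72 h PE, and its counts lie mostly in the 5′UTR.

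Where in the gene the AGO1 peaks lie differed between members and, less, between times. Each peak carries the class the authors gave it, and of all ribosomal protein counts 44.7% lay in coding sequence (CDS), 22.2% in introns, 16.2% in 3′UTRs, 9.01% in the class exon, 4.59% in the class mRNA and 3.31% in 5′UTRs; the sources used here do not say how exon and mRNA differ from the rest. All 86 members had a CDS peak, 59 a 3′UTR peak and 46 an intron peak. In 7 genes introns held most of the counts: 93.0% in L36 (AAEL000010), 82.8% in S30, 80.4% in S9, 76.8% in S20, 76.6% in L28, 72.9% in L40 and 67.9% in L34 (AAEL009341). S6 was the opposite, with 94.4% of its counts in CDS. In L15 the 5′UTR held 56.4%, and in L37a the 3′UTR held 71.7%. Introns of ribosomal protein genes host small nucleolar RNAs in many animals. No peak annotated as such an RNA lay within the stretch covered by any member's peaks. The search left out peaks assigned to the members themselves, so it cannot show whether their intron peaks hold such RNAs.

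The intron share followed the replicate number more than the time. It was 29.3%, 19.5% and 20.2% at 24 h PBM and 28.7%, 17.1% and 17.6% at 72 h PE, so replicate 1 was the high library at both times. For this reason CDS and 3′UTR were also set against counts outside introns. There the CDS share of ribosomal protein counts was 53.7%, 53.7% and 56.5% at 24 h PBM, against 56.7%, 59.8% and 60.03% at 72 h PE. The 3′UTR share outside introns was 25.3%, 22.2% and 20.9% at 24 h PBM, against 20.3%, 19.7% and 18.6% at 72 h PE. Neither overlapped between the times, though the nearest libraries were within 1 percentage point.

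Other genes went the other way. Outside introns, and without the fat body list and RNA classes, their CDS share was 80.2% ± 1.01 at 24 h PBM and 72.9% ± 0.253 at 72 h PE, and their 3′UTR share was 11.9% ± 0.640 at 24 h PBM and 16.5% ± 0.364 at 72 h PE (SD, n = 3 each). In ribosomal protein genes the same measures were 54.6% ± 1.61 for CDS and 22.8% ± 2.25 for 3′UTR at 24 h PBM, and 58.8% ± 1.85 for CDS and 19.5% ± 0.875 for 3′UTR at 72 h PE. The difference between the gene sets was not tested. The fat body list was made from words in gene names, so yolk protein genes named otherwise stay among the other genes, and their part was not tested. With introns kept in, the 3′UTR share of ribosomal protein counts was 17.5% ± 0.677 at 24 h PBM and 15.4% ± 0.915 at 72 h PE without overlap, and the CDS share overlapped. By subunit, the 3′UTR share was 19.9% ± 2.44 at 24 h PBM and 16.1% ± 0.621 at 72 h PE for the small subunit, without overlap. For the large subunit it was 15.8% ± 1.83 at 24 h PBM and 14.9% ± 1.23 at 72 h PE, with overlap.

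**Figure D4:**
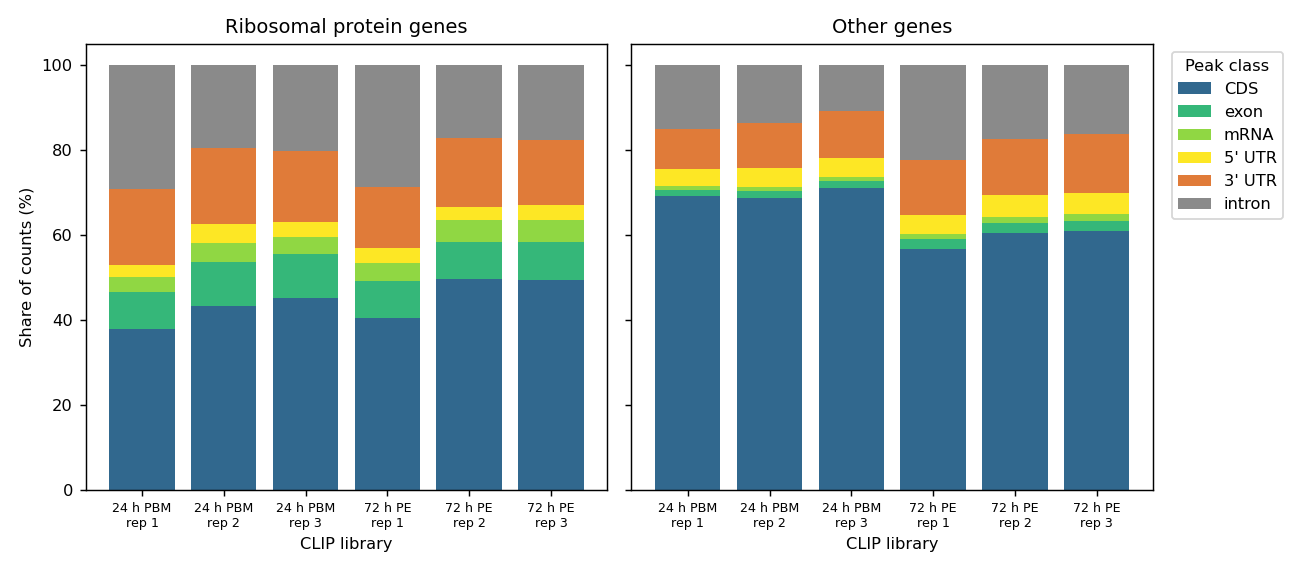
Share of counts by peak class in percent, for each CLIP library, in ribosomal protein genes on the left and in other genes without the fat body list and RNA classes on the right. Introns reach about 29% of ribosomal protein counts in replicate 1 of both times, and the CDS share of other genes is higher in every 24 h PBM library than in any 72 h PE library.

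The same edgeR test was run on counts summed by gene and peak class. Of 595 gene and class sums tested over all genes, 11.4% were lower and 12.8% higher at 24 h PBM. Of 109 sums of members 5 were lower and 0 higher, with DESeq2 calling 3. The 5 were the CDS of L44 L41, L15, P0 and S2 and the mRNA class of S2. A sum can pass the filter through 1 time alone, so this count is a description. At 24 h PBM the CDS of L44 L41 had 194, 144 and 47.6 CPM and the mRNA class of S2 96.8, 192 and 95.2 CPM. Without replicate 2 or replicate 3 of 24 h PBM or replicate 2 of 72 h PE there were 0, and without replicate 3 of 72 h PE 1. The median log2 fold change was −0.62 over 54 CDS sums of members (0.14 in CDS of other genes), −0.32 over 23 sums in 3′UTRs (0.06 in other genes) and −0.25 over 16 sums in introns (0.03 in other genes). It was −1.12 over 4 sums in the class mRNA, −0.54 over 9 in the class exon and −0.17 over 3 in 5′UTRs. CDS made up 54 of the 109 sums tested. Differences between classes were not tested.

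Single genes show this spread. The CDS of L15 had 484, 529 and 286 CPM at 24 h PBM, against 1883, 1075 and 663 CPM at 72 h PE, a log2 fold change of −1.46 (SE 0.50, edgeR adjusted p = 0.0318). Its 5′UTR, which holds most of its counts, had 1969, 1875 and 1238 CPM at 24 h PBM and 2048, 2078 and 1621 CPM at 72 h PE. The coding part was thus separated and the 5′UTR was not, with a log2 fold change of −0.17 (SE 0.40, edgeR adjusted p = 0.776). The CDS of S2 had 1517, 1779 and 1476 CPM at 24 h PBM, against 3336, 4253 and 4422 CPM at 72 h PE, a log2 fold change of −1.33 (SE 0.39, edgeR adjusted p = 0.0101). Its introns had 904, 433 and 1190 CPM at 24 h PBM and 694, 440 and 442 CPM at 72 h PE, with overlapping libraries and a log2 fold change of 0.68 (SE 0.51, edgeR adjusted p = 0.345). In S9, CDS counts were separated, with 517, 721 and 714 CPM at 24 h PBM and 760, 1711 and 1216 CPM at 72 h PE, while its introns overlapped; neither was called.

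**Figure D5:**
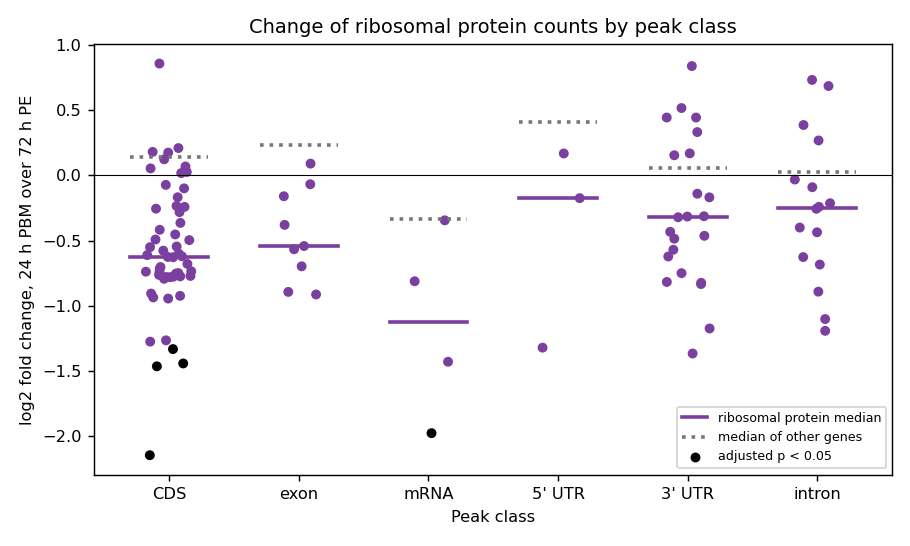
Log2 fold change of 24 h PBM over 72 h PE for each member's counts in 1 peak class, with black points for the 5 sums called by edgeR; purple bars are the members' medians and dotted grey bars those of other genes. The median lies at −0.62 in CDS and at −1.12 in the class mRNA, and the called sums lie in CDS and in the class mRNA.

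The 3rd fit took each peak by itself. Of all 100836 peaks 948 were tested, 13.1% of them lower and 25.4% higher at 24 h PBM. Of the 881 peaks of members 94 were tested, and 32 of these, in 20 genes, were lower at 24 h PBM and 0 higher. A peak can pass the filter through 1 time alone, so this count is a description; with DESeq2's size factors in edgeR it was 20, and with no filter 0. The 94 peaks had a median log2 fold change of −1.16 and all peaks tested −0.09. These values are on the scale of this fit, which includes peaks outside genes, and are not to be set against those of the gene sums.

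The lowest value was that of a CDS peak of L6 (AAEL008188, supercontig 1.305, 1331102 to 1331225, plus strand, AaegL3), a large subunit protein. It had 2, 1 and 2 counts at 24 h PBM, against 14, 15 and 12 counts at 72 h PE, a log2 fold change of −3.27 (SE 0.71, edgeR adjusted p = 0.000209). L6 as a whole was not called in the fit of gene sums (edgeR adjusted p = 0.161). A CDS peak of P0 (supercontig 1.510, 445670 to 445787, plus strand) had 8, 0 and 1 counts at 24 h PBM, against 17, 29 and 13 counts at 72 h PE, a log2 fold change of −3.09 (SE 0.73, edgeR adjusted p = 0.000538). In both peaks every 72 h PE library held more counts than any 24 h PBM library. Both were picked as low values of this fit. A peak can pass the filter through 72 h PE alone, so their p-values are a description.

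Larger peaks were lower as well. A CDS peak of L4 (supercontig 1.446, 384839 to 384927, plus strand) had 6, 8 and 14 counts at 24 h PBM, against 61, 72 and 21 counts at 72 h PE, a log2 fold change of −2.60 (SE 0.62, edgeR adjusted p = 0.00066). An intron peak of S20 (supercontig 1.401, 440038 to 440147, plus strand) had 17, 5 and 5 counts at 24 h PBM, against 66, 44 and 11 counts at 72 h PE, with a log2 fold change of −2.58 (SE 0.64, edgeR adjusted p = 0.00107). In this S20 peak replicate 3 of 72 h PE lies below replicate 1 of 24 h PBM in counts. The 3′UTR peak of L35 (AAEL005629, supercontig 1.166, 1475632 to 1475697, minus strand), which holds 64.5% of that gene's counts, had 34, 3 and 22 counts at 24 h PBM, against 33, 92 and 52 counts at 72 h PE, a log2 fold change of −1.90 (SE 0.57, edgeR adjusted p = 0.00647). The calls of the L6, P0 and L4 peaks were kept with each library left out in turn, though under the same filter. That of the S20 peak was lost without replicate 1 of 72 h PE, and that of L35 without replicate 2 of either time; without the filter on low counts none of the 5 was called.

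All classes held lower peaks, beside 13.1% lower over all peaks tested, for which no share by class was taken. A peak can pass the filter through 1 time alone. Of the tested peaks 17 of 39 in CDS, 7 of 25 in introns, 4 of 18 in 3′UTRs, 1 of 7 in the class exon, 2 of 3 in the class mRNA and 1 of 2 in 5′UTRs were lower. S2, P0, L17 and P2 had 3 each. All 3 lower peaks of S2, P0 and L17 lay in CDS, while those of P2 were 1 in CDS and 2 in the class mRNA.

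The most counted peaks were called only in part. The top one is an intron peak of L28 (supercontig 1.319, 957995 to 958051, plus strand) with 521 counts, 60.4% of the gene, and it had 120, 72 and 65 counts at 24 h PBM and 69, 107 and 88 counts at 72 h PE (log2 fold change −0.38, SE 0.43, edgeR adjusted p = 0.575). The next was another S20 intron peak (441526 to 441593), with 144, 29 and 25 counts at 24 h PBM and 99, 88 and 59 counts at 72 h PE (log2 fold change −0.87, SE 0.47, edgeR adjusted p = 0.149). So within S20 1 intron peak was called and a larger one was not. The 5′UTR peak of L15 (supercontig 1.733, 257564 to 257642, plus strand) had 61, 39 and 26 counts at 24 h PBM and 62, 81 and 44 counts at 72 h PE, and the 3′UTR peak of L37a (supercontig 1.816, 199218 to 199296, plus strand) had 84, 41 and 27 counts at 24 h PBM and 42, 83 and 33 counts at 72 h PE. Neither was called. Of the 10 most counted peaks 4 were lower at 24 h PBM, beside 32 of 94 tested peaks of members and 13.1% of all peaks tested. The 4 were those of L35, the 3′UTR of L10, and P2 in CDS and in the class mRNA. The last had as many counts as an intron peak of L14 that was not called.

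Other translation genes were read from the same gene fit, by lists made from words in their names. Few of their members could be tested. A gene with few counts can pass the filter through 1 time alone, so the counts of genes called are a description. Of all genes tested 12.3% were lower and 14.7% higher at 24 h PBM. Of 10 elongation factor genes 4 were tested and 2 fell at 24 h PBM. Elongation factor 1 gamma (AAEL011288), a subunit of the complex that recharges the factor delivering tRNA, had 325, 249 and 692 CPM at 24 h PBM, against 1037, 1742 and 1296 CPM at 72 h PE (log2 fold change −1.71, SE 0.47, edgeR adjusted p = 0.0081). Elongation factor 1 beta,delta (AAEL009313) of the same complex had a log2 fold change of −1.48 (SE 0.51, edgeR adjusted p = 0.0339). Both values are lower than those of the 61 ribosomal protein genes tested.

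Of 39 initiation factor genes 8 were tested, 3 fell and 1 rose. The 3 are subunits A and B of the scaffold factor eIF3, with log2 fold changes of −1.57 and −1.93, and the factor named if-2 at −1.58. The one that rose is the eIF4E binding protein 4EBP (AAEL001864), which holds back cap-dependent initiation until TOR signalling releases it. It had 4140, 3903 and 4928 CPM at 24 h PBM, against 2533, 668 and 1555 CPM at 72 h PE, without overlap (log2 fold change 1.46, SE 0.39, edgeR adjusted p = 0.00738). This call was lost when libraries were scaled by their totals, or without replicate 2 or without replicate 3 of 72 h PE. Both tRNA synthetase genes tested, of 29, fell, as did 1 of 2 tested ribosome biogenesis genes, of 25, with the same limit of the filter. The polyadenylate-binding protein (AAEL010318) was not called, at −0.60 (SE 0.33, edgeR adjusted p = 0.184). Over these lists 8 genes were lower, but 2 without replicate 3 of 24 h PBM or replicate 2 of 72 h PE, 3 without replicate 2 of 24 h PBM or replicate 3 of 72 h PE, and 4 without replicate 1 of 72 h PE. Over all genes tested 77 were lower, and with these libraries left out, in the same order, 41, 37, 48, 37 and 67. None of the 47 mitochondrial ribosomal protein genes had enough counts for the test.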

How the data were processed

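AGO1 CLIP was counted in 3 libraries at 24 h PBM and 3 at 72 h PE; the small RNA libraries were not used here. The deposited table gives raw counts per peak and library for 1 common set of 100836 peaks, each with its summed count, its length (start taken from end, so whether positions begin at 0 or 1 is not stated) and an annotation, on AaegL3 supercontigs with AaegL3.3 names per the file headers. Per the submitters' processing notes the tools were R 3.1.2, bedtools 2.17.0, TopHat2 2.0.14 and Bowtie2 2.2.3, with no roles given. How reads of several positions or strands were assigned is not given in the sources used here.

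Counts were summed by annotation ID, by ID and class, or kept by peak, and tested with edgeR 4.0.16 in R 4.3.3 (TMM, filterByExpr, robust quasi-likelihood F-test, two-sided, Benjamini-Hochberg over all features tested); levels are CPM of the counts in the features tested, after TMM scaling. DESeq2 1.42.0 was an alternative, and the edgeR step was tested on simulated data. Others were RLE size factors, library totals, no filter, the replicate number as a block, sums without introns or over all features, and each library left out; sums by protein name, sums without the fat body and ovary lists, the changed denominators and shares outside introns were added after seeing the data. Named genes were the called members, the 12 most counted, the 3 highest and 3 lowest in log2 fold change and ubiquitin fusions; peaks were the 10 most counted and the lowest called. L12 and P1 were named after their values were seen, for their place beside P0. Members and lists were chosen with earlier results of these data known. The RefSeq gene table given, of another assembly, holds none of the gene IDs, so no sequence or AaegL3 gene model was used here.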

Additional observations from a re-analysis of the deposited data

How the results depend on the processing

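Of the ribosomal protein share of gene counts, the difference of 24 h PBM minus 72 h PE was −6.73 percentage points, and −3.19 with all peak counts as denominator, where the share is smaller at both times; the ratio of 72 h PE to 24 h PBM was 2.22 and 2.24. The count of members lower was 41 of 61 with library totals (208 of 630 genes), 8 of 61 with the replicate block (12.4% of all genes), 2 with DESeq2 (58 of 627 genes) or without intron peaks (73 of 534 genes), 0 with no filter (35 of 8578 genes) and between 0 and 8 with each library left out in turn (37 to 67 genes); their median log2 fold change was −1.18 with library totals, −0.62 with no filter and between −0.64 and −0.31 with a library left out. With no filter 20 members had an unadjusted p under 0.05. The count of member peaks lower was 20 with RLE size factors (85 of 948 peaks), 0 with no filter (13 of 100836) and between 17 and 36 with a library left out (81 to 143 peaks in all), and their median was −0.85 with RLE, −0.87 with DESeq2, −0.98 with no filter and between −1.36 and −1.14 with a library left out. The count of gene and class sums lower was 52 with library totals (median −1.21; 193 of 592 sums in all), 11 with the replicate block (85 of 595), 3 with DESeq2 (35 of 595), 0 with no filter (15 of 15351) and between 0 and 5 with a library left out (17 to 43). Of the other translation genes 8 were lower and 1 higher; the lower were 3 with no filter, 4 with DESeq2 and between 2 and 6 with a library left out, and the higher 0 with library totals and between 0 and 1 with a library left out.

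The replicate numbers were not used as pairs in the main fit. Deviations from the time means correlated by 0.217, 0.0456 and 0.168 for numbers 1, 2 and 3. Each 24 h PBM library correlated best with the 72 h PE library of its own number. Replicate 2 of 72 h PE, however, correlated better with replicate 3 of 24 h PBM (0.0671). The replicate block left the medians at −0.49 for genes, −1.19 for peaks and −0.54 for gene and class sums, with 40 peaks lower. Among class shares, the 3′UTR difference was 3.26 points outside introns, the mRNA difference −0.101 and the 5′UTR difference −0.254 with each member weighted equally; with a library left out the 5′UTR difference lay between −0.251 and 0.62 and the intron difference between −1.24 and 5.68 points. L28 was −0.59 with library totals, −0.0035 with no filter, −0.74 without intron peaks and between −0.048 and 0.28 with a library left out; L37a was −0.42 and S17 −0.37 with library totals. With a library left out S9 lay between −0.80 and 0.0821, L10 between −0.59 and 0.0326 and S20 between −1.14 and 0.0631. The cause was not tested. At this depth 25 members, with at most 70 counts each, were not tested.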
